A study of Haemaphysalis flava with 2 samples.

Results

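Unigenes for amino acid breakdown, transamination and nitrogen metabolism were examined in midgut libraries of Haemaphysalis flava, a hard tick. A unigene is an assembled transcript or transcript fragment, named here as in the deposited tables. The unigenes were chosen by words in their protein description, such as aminotransferase, glutamine synthetase, homogentisate, ornithine or arginase, with tRNA enzymes left out. The words were sought in the description of the best hit in the Nr protein database, or in that of the UniProt hit where Nr gave none. The expression table lists 65535 unigenes, of which 39 were chosen, 37 by an Nr description and 2 by a UniProt description. Polyadenylated RNA was sequenced from midguts of fully engorged (FE) and partially engorged (PE) ticks, each state being represented by 1 library. The labels give 30 dissected midguts for a state without saying how many entered a library, and no age, sex, strain or treatment of the ticks was used here.

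A tick takes in little but blood, whose dry matter is mostly protein, and digests it inside the cells of its midgut. The amino acids released there that are not built into tick protein have to be broken down, and their nitrogen is moved by transamination, stored in glutamine or excreted, in ticks mainly as guanine. Tyrosine is poorly soluble, and in the kissing bug Rhodnius prolixus, another blood feeder, loss of the early enzymes that degrade it is lethal after a blood meal. The comparison of FE with PE asks which of these transcripts stand at another level at the end of the blood meal than at an earlier point of it.

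Levels are given as reads and as RPKM, the authors' value of reads divided by unigene length and library total. Ratios are FE RPKM over PE RPKM unless PE over FE is stated, and the range behind each is the 95% counting interval of the ratio. The call higher in FE needed log2((FE RPKM + 1)/(PE RPKM + 1)) of 1 or more, the call lower in FE needed -1 or less, and in both cases the interval had to exclude 1. Unigenes under 1 RPKM in both libraries were not rated. Since neither state had a replicate, no test was possible, and each difference is one between these 2 libraries. Fewer cells of a type and less RNA per cell cannot be told apart in such samples.

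Of the 39 unigenes 35 reached 1 RPKM in a library, and 4 did not. By the 2-fold rule 11 of the 35 were higher in FE, which is 31.4% against 25.7% of all 44982 rated unigenes. A further 2 were lower, 5.71% against 11.1% of all, and 22 were neither. Whatever the size of the difference, 24 of the 35 had a positive log2 ratio, where 63.9% of all unigenes did, and 11 a negative one, where 36.1% did. The median log2 ratio was 0.39 (order-statistic 95% interval 0.00 to 0.96), beside 0.36 for all unigenes, so as a whole the list lay close to the background. That interval takes the 35 unigenes as independent, although several share an enzyme, and it measures no spread between ticks. Tyrosine and phenylalanine words held 6 of the 11 unigenes called higher and the ornithine and arginine group held 3, while the abundant glutamine synthetase, glutamate dehydrogenase and aspartate aminotransferase unigenes were neither.

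**Figure D1:**
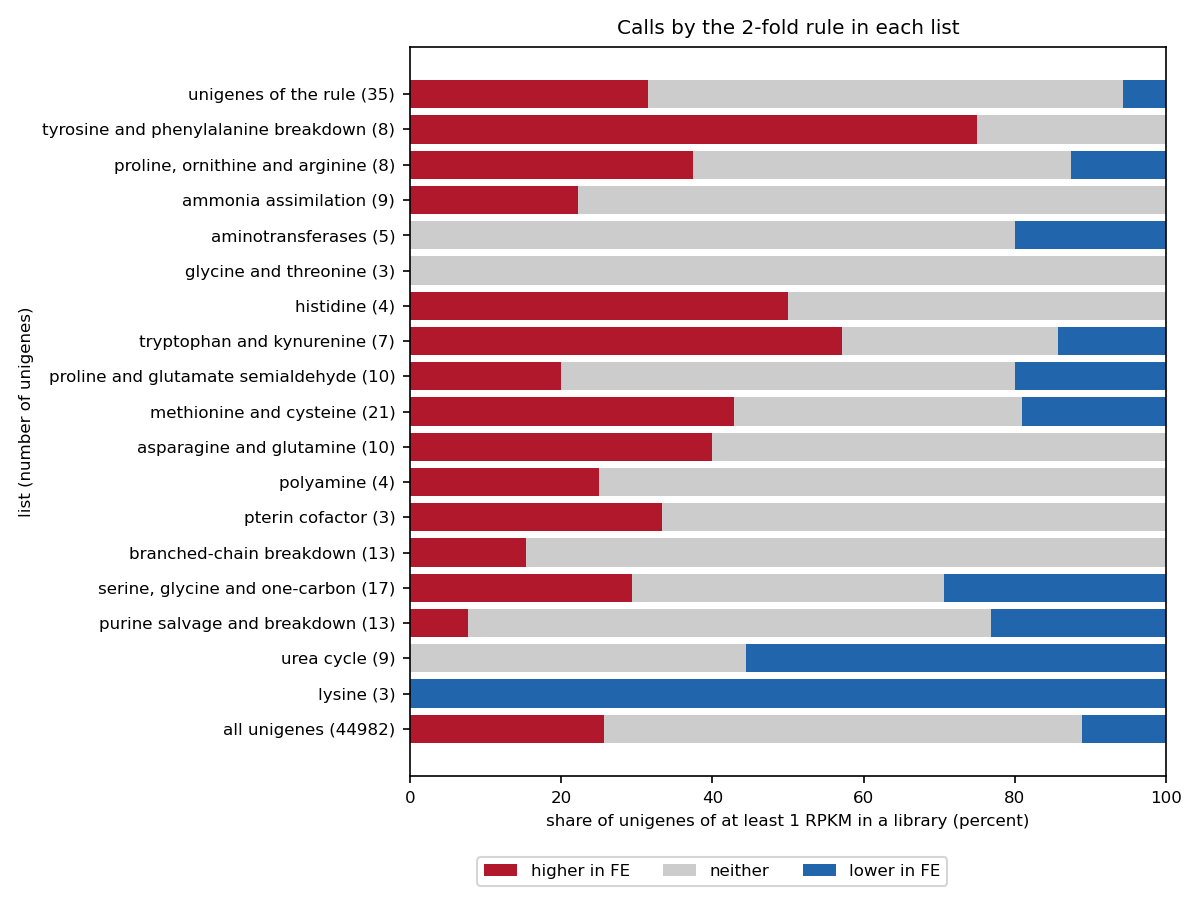
Share of unigenes called higher in FE, neither, or lower in FE (horizontal axis, percent of the unigenes with at least 1 RPKM in a library) for the 35 chosen unigenes, their role groups and other lists of amino acid and nitrogen metabolism with at least 3 such unigenes, with all 44982 unigenes at the bottom. Among unigenes grouped by words as tyrosine and phenylalanine breakdown 6 of 8 were higher and none lower, whereas all 3 lysine breakdown unigenes were lower. The 6 include 3 unigenes of homogentisate dioxygenase and Contig8191, a less certain word match.

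The libraries held 35944321 listed reads for FE and 43831353 for PE. The median ratio of all unigenes lay above 0 on the log2 scale, so the choice of scaling matters for small differences. With a TMM factor, which lowered every FE over PE ratio by 0.39 on the log2 scale, 18.3% of all unigenes were higher and 15.6% lower in FE, and 9 of the 35 were higher and 3 lower. In all, 11 of the 13 calls were kept under TMM, under median-of-ratios size factors and under centring on well expressed unigenes. The 2 that were lost are named where they are described. Midgut markers (cathepsins, legumains, longipains and hemelipoglycoproteins) summed to 7822 RPKM in FE and 18962 in PE, with 12 of 30 rated unigenes higher and 11 lower. The most abundant of them were hemelipoglycoproteins, such as Contig1058 with 1286 RPKM in FE and 3808 in PE, and these dominated the sums. Other unigenes of that description were higher in FE, such as Contig13914 with 88.2 RPKM in FE and 4.63 in PE. The longipain unigenes Contig8241 and Contig8240 had 42.3 and 37.3 RPKM in FE and 0 reads in PE. Whether the sums follow the amount of midgut tissue was not tested. Of 20 rated nervous tissue marker unigenes 11 were higher and none lower, or 7 and 1 with a TMM factor, with sums of 61.1 RPKM in FE and 33.9 in PE and 4 of 26 at 0 reads in PE. Muscle markers had 7 of 45 higher and 5 lower (2545 RPKM in FE, 2984 in PE). The 5 lower ones were all described as non-muscle myosin heavy chain, which the muscle words also matched, and they are within the sums. Among the 7 higher ones, Contig26434 and Contig26480 have UniProt hits that name a transposable element. Salivary gland words had 32 of 83 higher and 25 lower (6235 and 20162 RPKM). The 2 vitellogenin receptor unigenes, markers of the ovary, summed to 137 RPKM in FE and 48.9 in PE, and the 1 unigene described as hemoglobin had 5.36 and 9.94 RPKM. The part of other tissues in the results below was not tested.

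Breakdown of phenylalanine and tyrosine runs through 6 enzymes, of which 5 were represented. The first, phenylalanine hydroxylase, makes tyrosine from phenylalanine. Its unigene Contig9756 had 7882 reads in FE and 8707 in PE, or 109 and 98.7 RPKM, a ratio of 1.10 (1.07 to 1.135), and was neither higher nor lower. It was the most abundant unigene of the route in both libraries.

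Tyrosine aminotransferase removes the amino group of tyrosine. Contig25567, whose Nr and UniProt hits and best KOG (eukaryotic orthologous group) hit name this enzyme, had 424 reads in FE and 24 in PE, or 6.10 and 0.284 RPKM, a ratio of 21.5 (14.2 to 33.9). The product, 4-hydroxyphenylpyruvate, is oxidised to homogentisate by 4-hydroxyphenylpyruvate dioxygenase. Its unigene Contig21981 had 830 reads in FE and 2 in PE, or 12.4 and 0.0246 RPKM, a ratio of 505 (139 to 4175). It was the strongest difference among the 35 unigenes, and 276 of all rated unigenes had a higher log2 ratio. The alignment to a dioxygenase of the tick Ixodes scapularis covered residues 1 to 381 of 381 at 81.6% identity, the whole length of that protein.

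Homogentisate 1,2-dioxygenase opens the aromatic ring. Contig7200 had 834 reads in FE and 209 in PE, 25.8 and 5.32 RPKM, a ratio of 4.85 (4.17 to 5.68). Contig3521 had 315 reads in FE and 95 in PE, 17.0 and 4.23 RPKM, a ratio of 4.03 (3.20 to 5.13). The longest, Contig25416, had 601 reads in FE and 202 in PE, 14.4 and 3.97 RPKM, a ratio of 3.62 (3.08 to 4.27). The 3 intervals overlap. The unigenes are 446 to 1010 nucleotides long, and their best KOG hits are to the same profile of 446 positions. Contig3521 covered positions 1 to 52, Contig25416 positions 148 to 331 and Contig7200 positions 390 to 440. The stretches do not overlap, and whether the 3 are pieces of 1 transcript was not tested. UniProt names all 3 gentisate 1,2-dioxygenase, a related ring-opening enzyme.

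The next enzyme, maleylacetoacetate isomerase, was not analysed here. Fumarylacetoacetase, the last of the route, splits fumarylacetoacetate into fumarate and acetoacetate. It is not among the 39 unigenes and was taken from a list of further pathway words. Its unigene Contig4721 had 5272 reads in FE and 2145 in PE, 59.1 and 19.8 RPKM, a ratio of 2.99 (2.84 to 3.14), and was called higher. Contig25567, Contig21981, the 3 homogentisate dioxygenase unigenes and Contig4721 were thus called higher in FE under each of the 4 scalings described above, while phenylalanine hydroxylase was called under none.

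**Figure D2:**
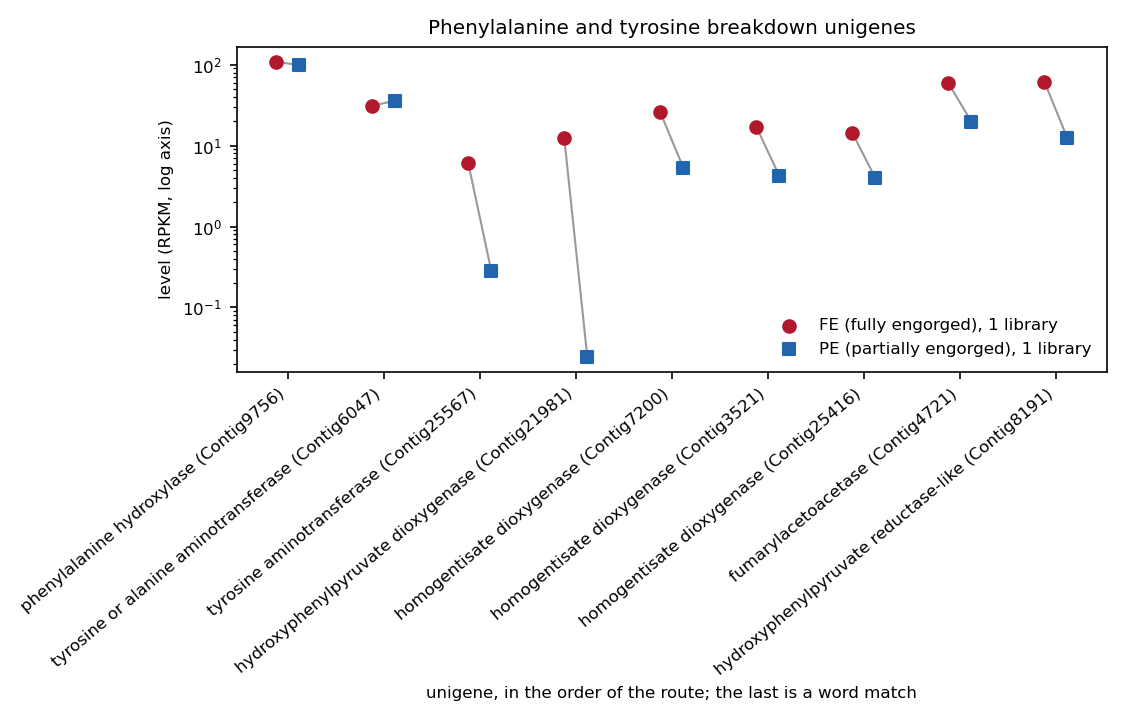
Level of each unigene of phenylalanine and tyrosine breakdown in the FE and the PE library (vertical axis, RPKM on a log axis; 1 library per point, no replicates), in the order of the route, with the hydroxyphenylpyruvate reductase-like unigene, a word match, at the right. Hydroxyphenylpyruvate dioxygenase had 12.4 RPKM in FE and 0.0246 in PE, whereas phenylalanine hydroxylase had 109 and 98.7.

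A pair of unigenes in this group carry the words but are less certain. Contig8191, described in Nr as hydroxyphenylpyruvate reductase-like, has a UniProt hit and a KOG hit that name glyoxylate/hydroxypyruvate reductase, an enzyme of serine and glyoxylate metabolism. It had 2991 reads in FE and 724 in PE, 61.8 and 12.3 RPKM, a ratio of 5.025 (4.63 to 5.46). Contig6047, described in Nr as tyrosine aminotransferase, has a UniProt hit (90.5% identity) and a KOG hit that name alanine aminotransferase, which links alanine to pyruvate. It had 4389 reads in FE and 6191 in PE, 31.0 and 35.9 RPKM, a ratio of 0.862 (0.829 to 0.896), and was neither. Without Contig8191, 5 of the 7 unigenes of the group were higher.

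The pterin cofactor of phenylalanine hydroxylase is recycled by a pair of enzymes. Pterin-4-alpha-carbinolamine dehydratase (Contig8591) had 164 RPKM in FE and 143 in PE, for a ratio of 1.14 (1.10 to 1.19). Dihydropteridine reductase (Contig14425) had 8.94 RPKM in FE and 3.23 in PE, for a ratio of 2.77 (2.20 to 3.51), and its call as higher was lost under TMM scaling.

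Aminotransferases pass amino groups between amino acids and keto acids. Mitochondrial aspartate aminotransferase (Contig13230) and the cytoplasmic form (Contig2106) together carry reducing power across the mitochondrial membrane as well as nitrogen. Contig13230 had 3536 reads in FE and 4607 in PE, 54.2 and 58.0 RPKM, a ratio of 0.934 (0.893 to 0.976). Contig2106 had 5016 reads in FE and 3283 in PE, 70.6 and 38.0 RPKM, a ratio of 1.86 (1.78 to 1.94). That was just short of the rule with the deposited RPKM (log2 0.88) and further from it with a TMM factor (log2 0.49). A fragment of 328 nucleotides (Contig19530) had 31.3 RPKM in FE and 34.2 in PE. The intervals of the cytoplasmic and the mitochondrial form do not overlap, and the cytoplasmic unigene was the more abundant of the pair in FE and the mitochondrial one in PE.

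Phosphoserine aminotransferase, of serine synthesis, had 14447 reads in FE and 11429 in PE (Contig1339), 73.4 and 47.7 RPKM, a ratio of 1.54 (1.5002 to 1.576). The exception in the group was 4-aminobutyrate aminotransferase (Contig13355), which breaks down the neurotransmitter GABA. It had 163 reads in FE and 1998 in PE, 1.27 and 12.8 RPKM, and was 10.1-fold lower in FE (8.59 to 11.9, PE over FE). Only 720 of all rated unigenes had a lower log2 ratio. Its alignment covered residues 1 to 428 of a 428-residue protein of Ixodes scapularis at 82.0% identity. Nervous tissue markers summed to 61.1 RPKM in FE and 33.9 in PE, as given above, and their part in this difference was not tested. A fragment described as glucosamine-fructose-6-phosphate aminotransferase (Contig55887), an enzyme of amino sugar synthesis, had 12 reads in FE and 1 in PE and stayed below the filter.

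Alanine-glyoxylate aminotransferase detoxifies glyoxylate to glycine, and the glycine cleavage system breaks glycine down to ammonia, carbon dioxide and a one-carbon unit. The H protein of that system (Contig2076) had 5595 reads in FE and 7885 in PE, 115 and 133 RPKM, a ratio of 0.863 (0.834 to 0.893). Contig4415, an alanine-glyoxylate aminotransferase 2 unigene, had 2160 reads in FE and 3219 in PE, 8.65 and 10.6 RPKM, a ratio of 0.816 (0.773 to 0.862). Contig28930 carries the same name, although its alignment spans only residues 268 to 305 of 431 and its UniProt hit is uncharacterized. It had 517 reads in FE and 1318 in PE, 5.59 and 11.7 RPKM, and was 2.10-fold lower in FE (1.89 to 2.32, PE over FE). The rule did not call it with the deposited RPKM (log2 -0.95) but did with a TMM factor (log2 -1.30), and all 3 unigenes of the group had the lower RPKM in FE. Of the glycine dehydrogenase unigenes, the P protein of the same system, the 4 rated ones had ratios between 0.999 and 1.07. None of them was called.

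Ammonia enters and leaves the amino acid pool through glutamate dehydrogenase and is fixed into glutamine by glutamine synthetase. The main glutamine synthetase unigene (Contig479) had 66098 reads in FE and 58277 in PE, 291 and 211 RPKM, a ratio of 1.38 (1.36 to 1.40). Mitochondrial glutamate dehydrogenase (Contig3370) had 14422 reads in FE and 17388 in PE, 160 and 158 RPKM, a ratio of 1.01 (0.987 to 1.03). These were among the most abundant of the 39 unigenes, and neither was called.

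Glutamine synthetase had 5 further unigenes. Contig14834 had 56.2 RPKM in FE and 51.9 in PE, for a ratio of 1.08 (0.980 to 1.20), and Contig22445 had 32.9 and 30.6 RPKM, a ratio of 1.08 (0.953 to 1.22). Contig1397 had 14.04 RPKM in FE and 14.3 in PE, for a ratio of 0.983 (0.814 to 1.19). For these 3 fragments of 319 to 372 nucleotides the interval held 1 with the deposited RPKM, which depends on the scaling. With a TMM factor their log2 ratios were -0.27, -0.28 and -0.39, without a call. The remaining pair stood apart from each other. Contig32892 had 631 reads in FE and 984 in PE, 9.71 and 12.5 RPKM, a ratio of 0.780 (0.705 to 0.863). Contig42887 had 225 reads in FE and 2 in PE, 4.002 and 0.0292 RPKM, a ratio of 137 (37.4 to 1137), and was called higher, a call lost with a pseudocount of 5 (log2 0.84). Both aligned best to the same glutamine synthetase-like protein of the acorn worm Saccoglossus kowalevskii, over residues 11 to 360 and 54 to 362, at 52.4% and 46.2% identity. The stretches overlap, and the UniProt hit of Contig42887 is an uncharacterized protein.

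A pair of minor glutamate dehydrogenase unigenes had higher RPKM in FE. Contig39834, described as glutamate/leucine/phenylalanine/valine dehydrogenase, had 318 reads in FE and 190 in PE, 22.9 and 11.3 RPKM, a ratio of 2.04 (1.70 to 2.45), which with the added 1 RPKM fell short of the rule. Contig22667, described as glutamate dehydrogenase A-like, had 511 reads in FE and 284 in PE, 13.2 and 6.01 RPKM, a ratio of 2.19 (1.89 to 2.54). Its call as higher was lost under each of the 3 other scalings and with a pseudocount of 5. The KOG hit of Contig22667 names a keratin-associated protein, and its UniProt hit a phenylalanine dehydrogenase.

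**Figure D3:**
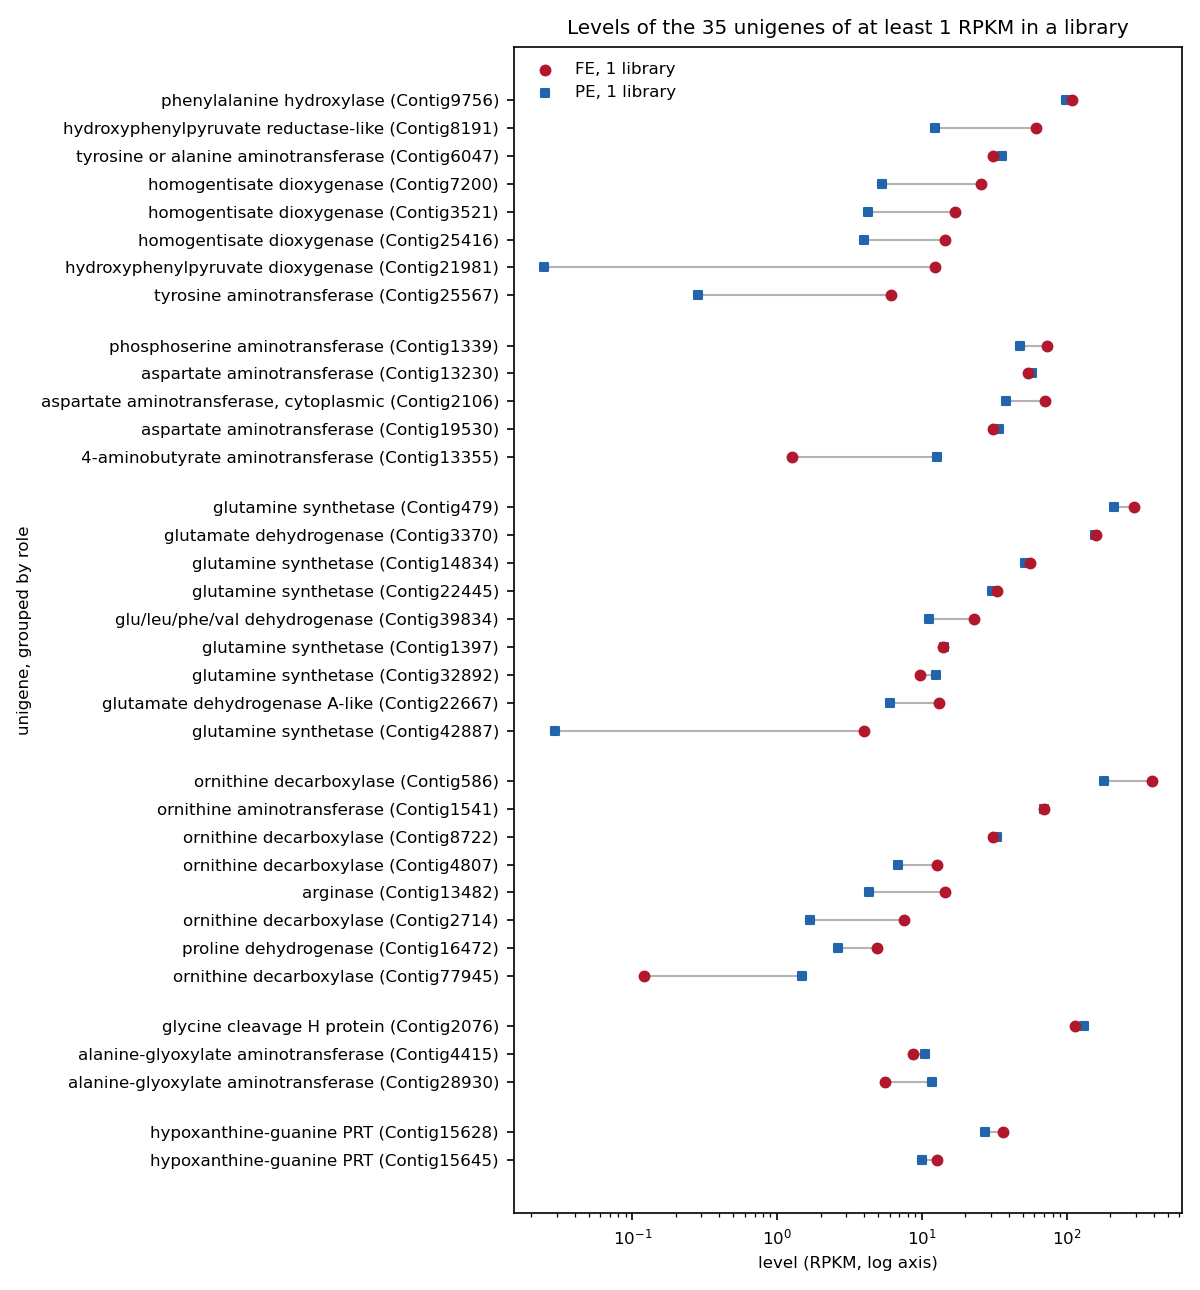
Level of each of the 35 unigenes with at least 1 RPKM in a library (horizontal axis, RPKM on a log axis), grouped by role and ordered by mean level within a role, with 1 library per point and no replicates. Ornithine decarboxylase Contig586 had the highest level in FE (387 RPKM) and glutamine synthetase Contig479 the highest in PE (211 RPKM).

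Ornithine links arginine, proline and the polyamines. Arginase releases ornithine and urea from arginine, ornithine aminotransferase passes ornithine toward proline and glutamate, and ornithine decarboxylase turns it into putrescine, the first polyamine. Arginase (Contig13482) had 980 reads in FE and 352 in PE, 14.6 and 4.30 RPKM, a ratio of 3.39 (2.995 to 3.84), and was called higher. Ornithine aminotransferase (Contig1541) had 4445 reads in FE and 5397 in PE, 70.3 and 70.2 RPKM, a ratio of 1.00 (0.963 to 1.04). Proline dehydrogenase (Contig16472), which starts proline breakdown, had 4.87 RPKM in FE and 2.65 in PE, for a ratio of 1.84 (1.39 to 2.435), and was neither. Of 3 further unigenes described as proline oxidase, another name of this enzyme, Contig6986 had 125 reads in FE and 9 in PE, 6.46 and 0.382 RPKM, a ratio of 16.9 (8.62 to 37.8), and was called higher under all 4 scalings. Contig6999 had a ratio of 1.69 (1.31 to 2.18) and Contig6987 one of 0.614 (0.431 to 0.865), and neither was called, so the unigenes of this enzyme differed among themselves.

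Ornithine decarboxylase had 8 unigenes. Contig586, the most abundant of the 39 in FE, had 24787 reads in FE and 14216 in PE, 387 and 182 RPKM, a ratio of 2.12 (2.08 to 2.17). It was called higher, and the call was lost with a TMM factor (log2 0.69), with median-of-ratios size factors (0.69) and with centring (0.86). With Contig479 it made up 37.3% of the summed RPKM of the 39 unigenes in FE and 29.3% in PE. Contig8722 had 1653 reads in FE and 2142 in PE, 30.9 and 32.95 RPKM, a ratio of 0.939 (0.880 to 1.00). The 2 abundant unigenes aligned to different proteins of Ixodes scapularis, at 80.3% and 74.5% identity, and the intervals of their ratios do not overlap.

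Of the other 6 ornithine decarboxylase unigenes, 3 aligned to 1 Ixodes scapularis protein and 3 to another. In the first set, Contig4807 had 12.7 RPKM in FE and 6.81 in PE, for a ratio of 1.87 (1.53 to 2.28), and Contig2714 had 124 reads in FE and 34 in PE, 7.501 and 1.69 RPKM, a ratio of 4.44 (3.01 to 6.69). Contig2714 was called higher, and it aligned over residues 287 to 340 of 357 only, at 40.7% identity. Contig18641 had 11 reads in FE and 0 in PE, below the filter. In the second set, Contig77945 had 2 reads in FE and 30 in PE, 0.120 and 1.48 RPKM, and was called lower in FE (12.3-fold, 3.13 to 106, PE over FE). Contig51316 had 14 reads in FE and 5 in PE, and Contig73549 had 5 and 9, both below the filter. Ratios of these scarce unigenes rest on few reads, and the calls of Contig2714 and Contig77945 were lost with a pseudocount of 5.

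Further along the polyamine route S-adenosylmethionine decarboxylase (Contig2237), which supplies the propylamine groups, had 156 RPKM in FE and 81.8 in PE, for a ratio of 1.905 (1.86 to 1.95), and was not called. Of the 2 spermidine synthase unigenes, Contig3315 had 63.1 RPKM in FE and 14.5 in PE, for a ratio of 4.35 (4.06 to 4.66), and was called higher. The other, Contig7103, had 127 RPKM in FE and 100 in PE, for a ratio of 1.27 (1.22 to 1.31).

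Purine words matched only hypoxanthine-guanine phosphoribosyltransferase, which recycles purine bases into nucleotides, and no xanthine dehydrogenase. Contig15628 had 700 reads in FE and 645 in PE, 36.3 and 27.5 RPKM, a ratio of 1.32 (1.18 to 1.47). Contig15645 had 208 reads in FE and 198 in PE, 12.8 and 9.997 RPKM, a ratio of 1.28 (1.05 to 1.56). Neither was called. Among 13 rated unigenes of other purine salvage and breakdown enzymes 1 was higher and 3 were lower in FE. The most abundant, purine nucleoside phosphorylase (Contig998), had 350 RPKM in FE and 420.5 in PE, for a ratio of 0.833 (0.818 to 0.849). Adenosine deaminase unigenes differed among themselves. Contig37210 was 4.89-fold lower in FE (4.15 to 5.80, PE over FE) and Contig28339 was 3.87-fold lower (3.18 to 4.74), both called. The scarce Contig24742, with 171 reads in FE and 18 in PE, 2.68 and 0.232 RPKM, was 11.6-fold higher (7.10 to 19.97).

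**Figure D4:**
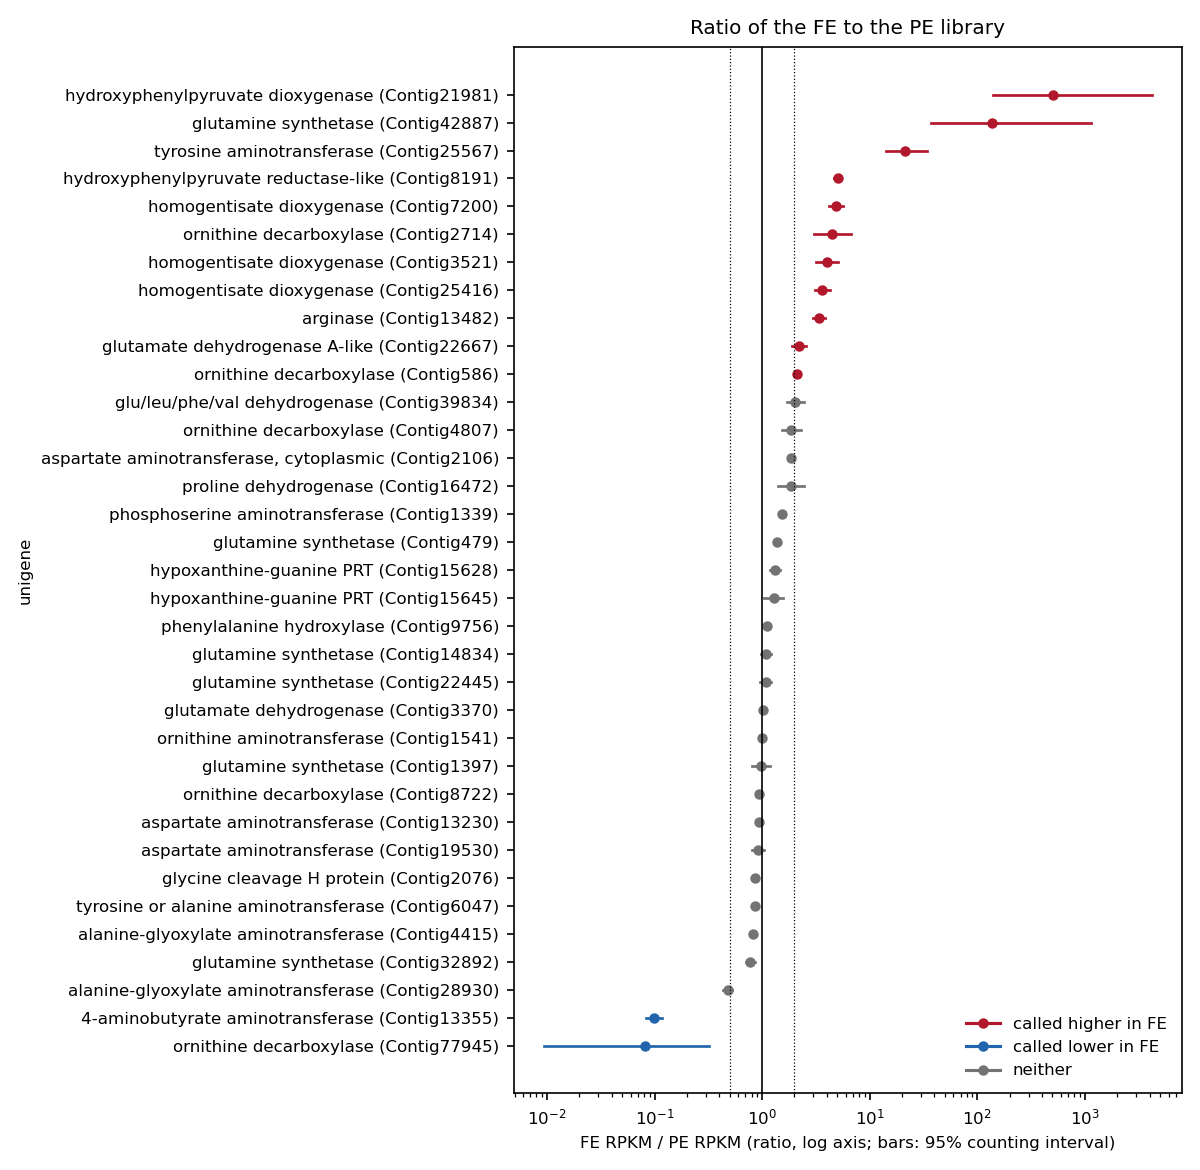
Ratio of FE RPKM to PE RPKM for the 35 unigenes with at least 1 RPKM in a library (horizontal axis, log axis), with bars for the 95% counting interval, a solid line at 1 and dotted lines at 2-fold. Unigenes called higher in FE reach from a ratio of 2.12 to one of 505, and the 2 called lower lie at 0.0992 and 0.0811.

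The other pathways of amino acid and nitrogen metabolism were described from 14 lists of words, which together held 131 unigenes outside the 39. Of the 115 rated, 32 (27.8%) were higher in FE and 23 (20%) lower, with a median log2 ratio of 0.31. Over all rated unigenes 25.7% were higher and 11.1% lower, so the higher share lay near the background and the lower share above it. With a TMM factor 19 were higher and 27 lower, where 18.3% and 15.6% of all unigenes were. These shares of all unigenes are also the background for the counts of each single list. Histidine breakdown had 4 rated unigenes, of which 2 were higher and none lower. Histidine ammonia-lyase (Contig2265), its first enzyme, had 168 RPKM in FE and 75.8 in PE, for a ratio of 2.21 (2.15 to 2.27), and imidazolonepropionase (Contig8733) had 57.6 and 17.4 RPKM, a ratio of 3.31 (3.11 to 3.53). The lyase call was lost with a TMM factor.

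The kynurenine route degrades tryptophan. Of 7 rated unigenes 4 were higher and 1 lower in FE, where TMM scaling gave 1 and 1. Tryptophan 2,3-dioxygenase (Contig10689), which opens the route, had 16.6 RPKM in FE and 5.55 in PE, for a ratio of 2.99 (2.69 to 3.34). The 2 kynureninase unigenes went opposite ways: Contig13356 had 17.6 RPKM in FE and 8.045 in PE, and Contig51509 had 2.36 in FE and 9.76 in PE.

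Lysine breakdown stood lower in FE. Its first steps are carried out by alpha-aminoadipic semialdehyde synthase, a fused lysine-ketoglutarate reductase and saccharopine dehydrogenase, and 3 unigenes with these names were all called lower. Contig6741 had 997 reads in FE and 3715 in PE, 23.6 and 72.3 RPKM, and was 3.06-fold lower (2.86 to 3.29, PE over FE). First_Contig366 was 3.02-fold lower (2.77 to 3.31) and Contig10358 was 2.94-fold lower (2.76 to 3.13). Whether they are pieces of 1 transcript was not tested.

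The words for the urea cycle found 9 rated unigenes, 5 of them lower in FE and none higher. Argininosuccinate lyase, which releases arginine, had 3 unigenes, all called lower. Contig54141 had 51 reads in FE and 409 in PE, 3.24 and 21.4 RPKM, 6.59-fold lower (4.92 to 9.00, PE over FE). The 2 other lower ones were urease accessory proteins, which mature urease and do not belong to the cycle. Argininosuccinate synthase (Contig10406) had 39.2 RPKM in FE and 56.1 in PE, for a ratio of 0.699 (0.663 to 0.736), and was neither. A scarce second synthase unigene (Contig54074) had 43 reads in FE and 6 in PE.

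In branched-chain breakdown 2 of 13 rated unigenes were higher and none lower, or 1 and 1 under TMM scaling. Serine, glycine and one-carbon enzymes went both ways, with 5 of 17 higher and 5 lower. The serine hydroxymethyltransferase unigenes differed among themselves. Contig6344 had 169 RPKM in FE and 63.7 in PE, for a ratio of 2.65 (2.48 to 2.83), and Contig9224 a ratio of 2.78 (2.63 to 2.94), both called higher. Contig9225 had a ratio of 1.59 (1.33 to 1.905), Contig8010 one of 0.933 (0.885 to 0.984) and Contig19923 one of 0.912 (0.823 to 1.01), none of them called. D-3-phosphoglycerate dehydrogenase (Contig1224), which opens serine synthesis ahead of phosphoserine aminotransferase, was 2.67-fold lower in FE (2.58 to 2.76, PE over FE). Phosphoserine phosphatase (Contig6160), of the same route, had 342 RPKM in FE and 166 in PE, for a ratio of 2.06 (2.01 to 2.12). Its call as higher was lost under each of the 3 other scalings, while Contig1224 was called lower under each. Contig10152, also described as D-3-phosphoglycerate dehydrogenase but by UniProt as glyoxylate/hydroxypyruvate reductase, was 2.60-fold lower (2.47 to 2.73, PE over FE). It too was called lower under each scaling. The words for methionine and cysteine enzymes had 9 of 21 higher and 4 lower, where TMM scaling gave 4 and 6. Several of those called higher were described as methionine synthase, while their UniProt hits name a flavoprotein reductase or an uncharacterized protein. The rated unigenes also include Contig13572, a homocysteine-responsive endoplasmic reticulum protein that the words matched, which was neither. Betaine-homocysteine methyltransferase (Contig18765) was 4.92-fold lower in FE (4.55 to 5.33, PE over FE). The 4 called higher of 10 rated asparagine and glutamine unigenes were all described as L-asparaginase-like, among them Contig6538 with 205 RPKM in FE and 3.38 in PE, while both rated glutaminase unigenes were neither. The words for proline and glutamate semialdehyde found 10 rated unigenes, 2 of them higher and 2 lower in FE. One of each pair, Contig9846 (higher) and Contig79447 (lower), is a prolyl 4-hydroxylase alpha subunit, which modifies proteins and does not belong to proline breakdown. The others were the proline oxidase unigene Contig6986 and pyrroline-5-carboxylate synthetase (First_Contig1777), 4.59-fold lower in FE (4.09 to 5.15, PE over FE).

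The lengths of the 39 unigenes ran from 319 to 6026 nucleotides, with a median of 1168. The best Nr hit came from Ixodes scapularis for 19, from the predatory mite Metaseiulus occidentalis for 9 and from other animals for 9, at 40.7% to 93.5% identity. The hit covered at least 90% of the protein for 14 unigenes and under 50% for 18. A KOG hit was deposited for 34, and for 31 of these it was in class E, amino acid transport and metabolism. Over class E as a whole 149 of 403 rated unigenes (37.0%) were higher in FE and 74 (18.4%) lower. Of the 16 chosen unigenes whose mean reached 30 RPKM, 2 (12.5%) were called higher and none lower, beside 27.7% higher and 17.98% lower among all 4188 unigenes of that level.

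The authors' deposited table gives 6 of the 39 unigenes a false discovery rate under 0.05, as did 7.98% of all 65535 unigenes. These were Contig586, Contig8191, Contig7200, Contig21981, Contig479 and Contig2106, and each was higher in FE in the authors' deposited table. The first 4 were also called by the 2-fold rule. That table rests on the same 2 libraries and adds no replicate.

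**Figure D5:**
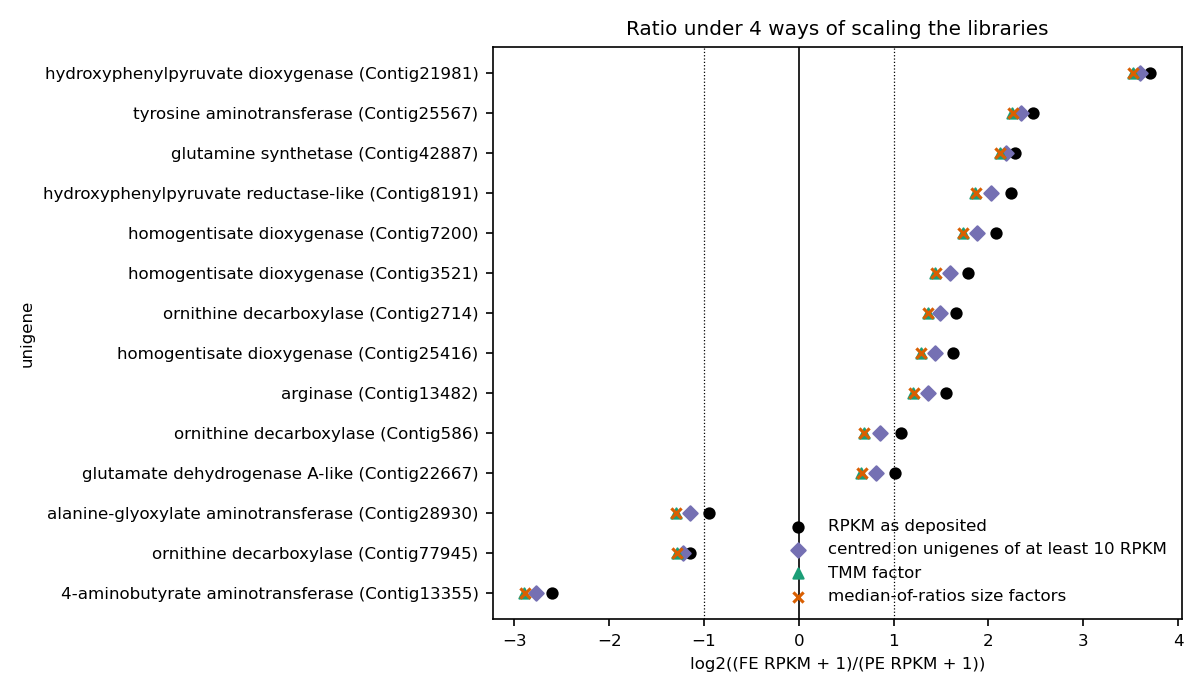
Log2((FE RPKM + 1)/(PE RPKM + 1)) under 4 ways of scaling the libraries for the 13 called unigenes and for alanine-glyoxylate aminotransferase Contig28930, which is called under 3 of them, with dotted lines at the thresholds of the rule. Ornithine decarboxylase Contig586 and glutamate dehydrogenase A-like Contig22667 cross to the inside of the threshold under the 3 other scalings, and the other 11 calls do not.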

How the data were processed

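Per the labels' protocols, total RNA came from Trizol extraction and poly(A) libraries from a TruSeq kit. The submitters' processing notes name CASAVA 1.8; no assembler, aligner or counter was stated in what was used here. The authors deposited read counts per unigene, without normalization, and RPKM values, per the file headers. The authors also deposited the ratio of PE over FE with p-values and false discovery rates from a test that is not stated. Protein hits with their percent identity and KOG hits with an alignment score were deposited by the authors. The best KOG hit was the one with the highest score.

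Counts over RPKM and length gave library totals of 41432770 (FE) and 50397332 (PE) reads. The listed counts were 86.8% and 87.0% of these. A further 4 annotated unigenes match the rule but are not among the 65535 listed and were not analysed here. Exact Clopper-Pearson (conditional binomial) 95% intervals of count ratios used these totals. They cover counting error only, and PCR copies are not independent molecules. A count of 0 allows up to 3 reads.

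Python 3.11.15, scipy 1.17.1 and edgeR 4.0.16 (TMM) were used. The rule was tested on simulated data that held counting error only, as the intervals assume. That check cannot show whether a call would hold in other ticks or libraries. The unigenes, word lists and alternatives were chosen with earlier results of these data known, and Contig39834 was put with glutamate dehydrogenase after its description was read. Values are given for the 4 most abundant unigenes of each role, the highest and lowest ratios, and each called unigene of at least 10 RPKM. The remaining unigenes of the rule, and those of other pathways, were named after their values were seen.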

Additional observations from a re-analysis of the deposited data

How the results depend on the processing

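No paired analysis was possible because each state had 1 library, and for the same reason no library could be left out. The count of unigenes higher in FE (11) stayed between 8 and 16 under every alternative but one. It was 6 where the Nr and the UniProt description both had to match, an alternative that leaves 25 rated unigenes and drops 5 called ones, the 3 homogentisate dioxygenase unigenes, Contig8191 and Contig42887, whose UniProt descriptions lack the words. The count of unigenes lower in FE (2) was 1 with a pseudocount of 5, with a filter at 5 RPKM and with 3-fold for a call, and 2 or 3 under the other alternatives. With the filter at 5 RPKM Contig77945 is not rated. The median log2 ratio ranged from 0.01 (TMM factor) to 0.53 (with 5 unigenes whose UniProt description alone matches). The latter alternative was chosen after seeing the data. None of the called unigenes changed direction under the 3 other scalings or with a pseudocount of 0.5 or 5. Of the 31 named by rule, 6 uncalled ones with a ratio above 1 were below it with a TMM factor and with median-of-ratios size factors (Contig9756, Contig14834, Contig22445, Contig3370, Contig1541 and Contig15645), and 5 of these, without Contig15645, did with centring. Depth limits the ratios of Contig21981, Contig42887 and Contig77945, each with 2 reads in 1 library.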

Other observations

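There were 5 unigenes whose UniProt description matched the words while their Nr description did not, and they are not among the 39. The most abundant, Contig1227, is a kynurenine aminotransferase by UniProt and a kynurenine-oxoglutarate transaminase by Nr. It had 115 RPKM in FE against 60.9 in PE, for a ratio of 1.89 (1.82 to 1.96). Contig1227 was also counted among the 7 rated unigenes of the kynurenine route, without a call. A second glycine cleavage H protein (Contig9651) had 56.6 RPKM in FE and 29.45 in PE, for a ratio of 1.92 (1.79 to 2.06), against 0.863 (0.834 to 0.893) for Contig2076, so the 2 H protein unigenes lay on opposite sides of 1. A glutamine synthetase by UniProt (Contig1385) had 41.2 RPKM in FE and 26.8 in PE, without a call. One putative aminotransferase (Contig18975), with 8.89 RPKM in FE and 3.60 in PE, was the one called higher, and the call was lost with a TMM factor. The last, another kynurenine aminotransferase by UniProt (Contig8059), had 13.5 RPKM in FE and 13.7 in PE.

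Aromatic amino acid decarboxylase and glutamate decarboxylase, which make biogenic amines and GABA, were scarce. The aromatic amino acid decarboxylase unigene (Contig77023) had 5 reads in FE and 21 in PE and the glutamate decarboxylase unigene (Contig76237) had 3 reads in FE and 12 in PE, both under 1 RPKM in either library.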
